A study of Drosophila melanogaster with 6 samples.

Results

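Glutathione transferases (GSTs) are enzymes that join the tripeptide glutathione to reactive or fat-soluble molecules, which makes these easier to inactivate and export. Insects have several cytosolic classes, of which delta and epsilon have expanded by gene duplication and are known for the breakdown of insecticides and plant toxins. In insect antennae, GSTs are among the enzymes thought to clear odorants and to protect sensory cells from oxidative damage.

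The genes described here were chosen by name, as every annotated Drosophila melanogaster gene whose FlyBase symbol is Gst followed by a class letter (D, E, T, O, S or Z) and a number. This gave 35 of the 17698 gene identifiers in the count files: 11 delta, 14 epsilon, 4 theta, 3 omega, 2 zeta and 1 sigma gene. Of these, 34 passed the expression filter and were tested, among 9181 tested genes in all. By annotation, 7 of the 11 delta and 9 of the 14 epsilon genes consist of a single stretch of exon, against 0 of the other 10 genes.

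RNA-seq libraries from whole antennae of females came from 2 genotypes, with 3 libraries each, matched in 3 sample pairs. PCD-blocked flies (peb-Gal4/+;Or49a-GFP/UAS-p35) carried the baculovirus gene p35, whose product inhibits the caspases of programmed cell death (PCD), under Gal4 control. Control flies (peb-Gal4/+;Or49a-GFP/+) had the same driver and reporter without p35, so both groups differ from wild type. No group carried UAS-p35 without the driver. Effects of p35 and other differences of the chromosome that carries UAS-p35 therefore cannot be told apart. The driver peb-Gal4 is named for the gene peb and is widely used for olfactory neurons, and Or49a-GFP is a reporter for a neuron type that expresses the odorant receptor Or49a. Each library pooled the antennae of about 350 flies, whose age is not given in the sources used here. Libraries held 15588725 to 17808516 gene counts. Levels are given as CPM, counts relative to the scaled library total, and levels of different genes are compared only as CPM per kb of exon. Differences are log2 fold changes of PCD-blocked over control from edgeR's quasi-likelihood test with the sample pair as a block, and "passed" means an adjusted p under 0.05 over all tested genes.

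Markers of olfactory neurons and of the support cells around them were abundant, as the tissue label says. Orco, the odorant co-receptor, had 3098 ± 25.3 CPM in PCD-blocked and 3012 ± 54.0 CPM in control antennae (SD, n = 3 each). The support cell gene Obp83a, for an odorant-binding protein, had 9406 ± 176 CPM in PCD-blocked and 9856 ± 219 CPM in control antennae. Among support cell markers nompA (log2 fold change 0.78) and Obp28a (0.34) were higher and lush lower (-0.39). Of the glial markers repo was higher (0.34), while Eaat1 (0.08) and moody (-0.03) did not pass and alrm was below the expression filter. The glial sums overlapped, at 174.9 to 199.1 CPM in PCD-blocked and 177.8 to 188.5 CPM in control libraries. Of the neuron markers the co-receptor genes Ir25a and Ir8a were higher (0.45) and lower (-0.11), while Orco, elav and nSyb did not pass. Summed levels of 6 fat body markers spanned 68.6 to 80.2 CPM in PCD-blocked and 45.0 to 177 CPM in control libraries, highest in control 1. Within that list apolpp was higher and the yolk protein genes Yp2 and Yp3 were lower, while Yp1 did not pass. Yp3 had 70.61, 19.55 and 9.24 CPM in controls 1 to 3. By a second test, DESeq2, 1 gene of the list was higher and 0 were lower. Of the 8 eye markers trp was higher, while ninaE, which encodes the main rhodopsin of the eye, was at 0.138 ± 0.0882 CPM in PCD-blocked and 0.116 ± 0.0579 CPM in control antennae. The eye list summed to 16.0 to 19.1 CPM in PCD-blocked and 8.34 to 9.47 CPM in control libraries. Most of these sums came from trp, at 13.4 ± 1.17 CPM in PCD-blocked and 5.54 ± 0.655 CPM in control antennae. The 3 haemocyte markers summed to 21.1 to 25.3 CPM in PCD-blocked and 18.9 to 22.1 CPM in control libraries. The 6 muscle markers gave 1.08 to 30.3 CPM in PCD-blocked and 4.04 to 24.8 CPM in control libraries, highest in PCD-blocked 3 and control 2. The part of these cell types in the results below was not tested. In whole tissue, fewer cells of a type and less RNA per cell cannot be told apart.

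In PCD-blocked antennae 8 of the 34 tested GST genes rose and 13 fell. Thus 61.8% of the tested GST genes passed, against 27.7% of all tested genes, with 14.3% of all genes higher and 13.3% lower. DESeq2 called 8 GST genes higher and 11 lower, against 7.11% and 7.21% of all genes. Direction went largely with class. In the delta class 6 of 11 genes were higher and 0 lower, while the epsilon class was mixed, with 2 of 13 tested genes higher and 6 lower. In the theta, omega and sigma classes together 0 of 8 genes were higher and 7 were lower, and neither zeta gene passed. No delta gene was lower, and no gene of the theta, omega, sigma and zeta classes was higher, by an unadjusted p under 0.05 in edgeR or by DESeq2 or limma-voom either. The median log2 fold change was 0.44 for delta, -0.22 for epsilon, -0.32 for theta and -0.30 for omega genes, against 0.00 over all tested genes. The difference between classes was not tested.

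**Figure D1:**
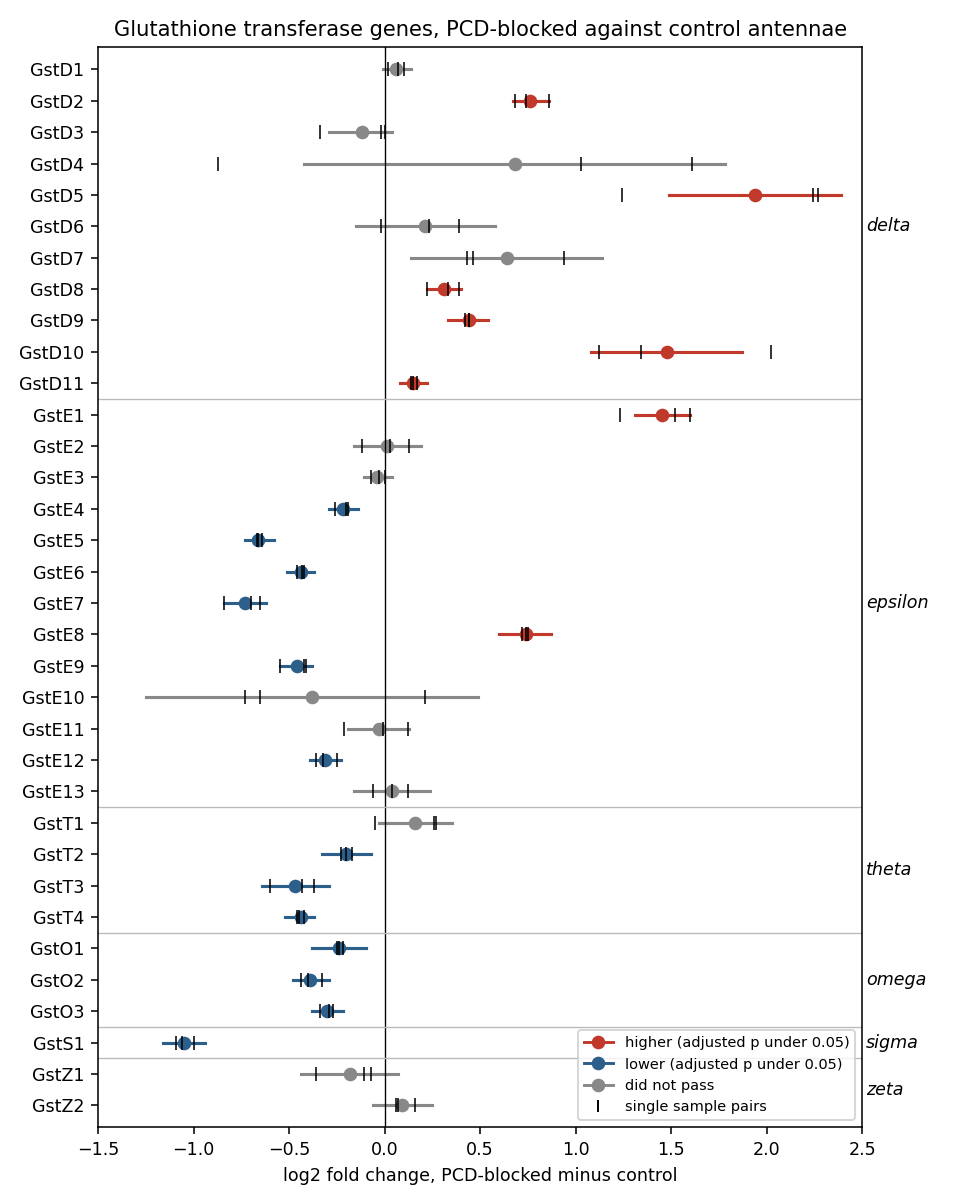
Log2 fold change of PCD-blocked over control for the 34 tested GST genes, grouped by class. Points are edgeR estimates, lines their 95% intervals and ticks the log2 CPM ratios of the 3 sample pairs, with red for higher, blue for lower and grey for genes that did not pass. Delta genes lie mostly to the right of 0 and the theta, omega and sigma genes that passed to the left, while GstE1 and GstE8 are the 2 red points among the epsilon genes.

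Every one of the 21 passing genes moved in the same direction in all 3 pairs. In each of them the 3 PCD-blocked values did not overlap the 3 control values. The calls rest on these same values, so this is no separate support for them. Including GstD7, which did not pass, the groups did not overlap in 22 of 34 GST genes, against 38.7% of all tested genes. PCD-blocked values lay above in 9 of these (19.9% of all genes) and below in 13 (18.8% of all genes). Most changes were small: 13 of the 21 passing genes differed by less than 1.5-fold. Changes of more than 2-fold were found in 4 GST genes, GstD5, GstD10, GstE1 and GstS1, and such changes were called in 3.49% of all tested genes.

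Delta genes lie in a single cluster of 20.8 kb on chromosome 3R of the BDGP6 assembly (12364776 to 12385624). The most abundant member, GstD1, is known for DDT dehydrochlorinase activity and as a standard reporter of oxidative stress. Its level was 1180, 1255 and 1150 CPM in PCD-blocked libraries 1 to 3 and 1122, 1174 and 1133 CPM in controls 1 to 3, so the groups overlapped. It did not pass (log2 fold change 0.06, 95% interval -0.01 to 0.14, adjusted p = 0.194).

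GstD5 (FBgn0010041, 12375733 to 12376572) showed the strongest rise of the family. Its level was 12.4, 16.03 and 9.66 CPM in PCD-blocked antennae, against 2.53, 3.24 and 4.04 CPM in controls. The lowest PCD-blocked value was more than 2-fold the highest control value, and the fitted rise was 3.83-fold (log2 fold change 1.94 ± 0.20 SE, adjusted p = 1.63e-04). GstD10 (FBgn0042206, 12364776 to 12365735), the first GST gene of the cluster by position, had 10.51, 10.2 and 8.76 CPM in PCD-blocked antennae, against 4.78, 3.99 and 2.08 CPM in controls. It rose 2.79-fold (1.48 ± 0.17 SE, adjusted p = 3.50e-04). Both genes were low: over 3 libraries GstD5 had 643 counts in PCD-blocked and 170 in control antennae, and GstD10 had 498 in PCD-blocked and 188 in control antennae. Their pair ratios varied as well, between 1.24 and 2.27 for GstD5 and between 1.12 and 2.02 for GstD10 on the log2 scale.

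GstD2 (FBgn0010038, 12371971 to 12372704) had the most precise of the larger rises. It stood at 180, 168 and 137 CPM in PCD-blocked and at 108, 92.6 and 85.5 CPM in control libraries (log2 fold change 0.76 ± 0.04 SE, adjusted p = 4.91e-06). GstD9 rose to 45.4 ± 4.49 CPM, against 33.6 ± 3.51 CPM in controls (0.44 ± 0.05 SE, adjusted p = 2.13e-04). In GstD8 the rise was smaller, with 190 ± 3.36 CPM in PCD-blocked antennae against 153 ± 8.52 CPM in controls (0.31 ± 0.04 SE, adjusted p = 5.12e-04). Of these genes GstD2 and GstD9 were lowest, within their group, in library PCD-blocked 3. It was the lowest PCD-blocked library in 6 of the 8 GST genes that rose, but also in fallen genes such as GstE4, GstE6 and GstE7. The sum over all GST genes was lowest there as well, at 6295 CPM against 6603 and 6625 CPM in PCD-blocked 1 and 2.

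GstD11 (12383336 to 12385624), which closes the cluster, rose slightly. It had 296, 294 and 299 CPM in PCD-blocked antennae and 268, 266 and 266 CPM in controls, a narrow spread in both groups (0.15 ± 0.03 SE, adjusted p = 0.00628). It did not pass without pair 2 (adjusted p = 0.0645), and the other alternatives gave 0.00550 to 0.0419, highest without pair 3.

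The remaining 4 delta genes did not pass. GstD3, whose protein lacks the N-terminal stretch that holds the catalytic serine of other delta GSTs, had 35.9 ± 1.56 CPM in PCD-blocked and 39.2 ± 4.35 CPM in control antennae. It was the only delta gene with a negative log2 fold change (-0.12, 95% interval -0.29 to 0.04). GstD7 had 3.50, 2.43 and 2.53 CPM in PCD-blocked libraries against 1.78, 1.73 and 1.85 CPM in controls, without overlap (0.64 ± 0.22 SE, adjusted p = 0.0593). It passed with limma-voom (adjusted p = 0.0479), and the adjusted p reached 0.498 in other alternatives. GstD6 had 4.45 ± 1.07 CPM in PCD-blocked and 3.81 ± 0.630 CPM in control antennae (0.21, 95% interval -0.15 to 0.58). GstD4 had 70 counts in PCD-blocked and 43 in control libraries, with an interval of -0.42 to 1.78. Without pair 3 it passed at a log2 fold change of 1.46 (adjusted p = 0.0204), while its adjusted p was up to 0.939 in other alternatives.

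Neighbours in the delta cluster therefore differed in size of change. The level of GstD2 per kb was 4 to 4.85 times that of GstD3 in PCD-blocked libraries, against 1.97 to 2.90 times in controls, without overlap. Between GstD5 and GstD4, whose reads were few, the same ratio was 6.46 to 13.5 in PCD-blocked libraries against 2.88 to 4.39 in controls. The delta cluster also holds 2 other annotated genes. CG10035, between GstD8 and GstD11, rose to 55.3 ± 1.76 CPM, against 42.6 ± 3.85 CPM in controls (log2 fold change 0.38, adjusted p = 9.54e-04), and lncRNA:CR46015 did not pass. Of the 5 nearest genes on each side 3 were tested, and CG4115 was higher (1.18, adjusted p = 0.00463). Over all tested genes 14.3% were higher.

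**Figure D2:**
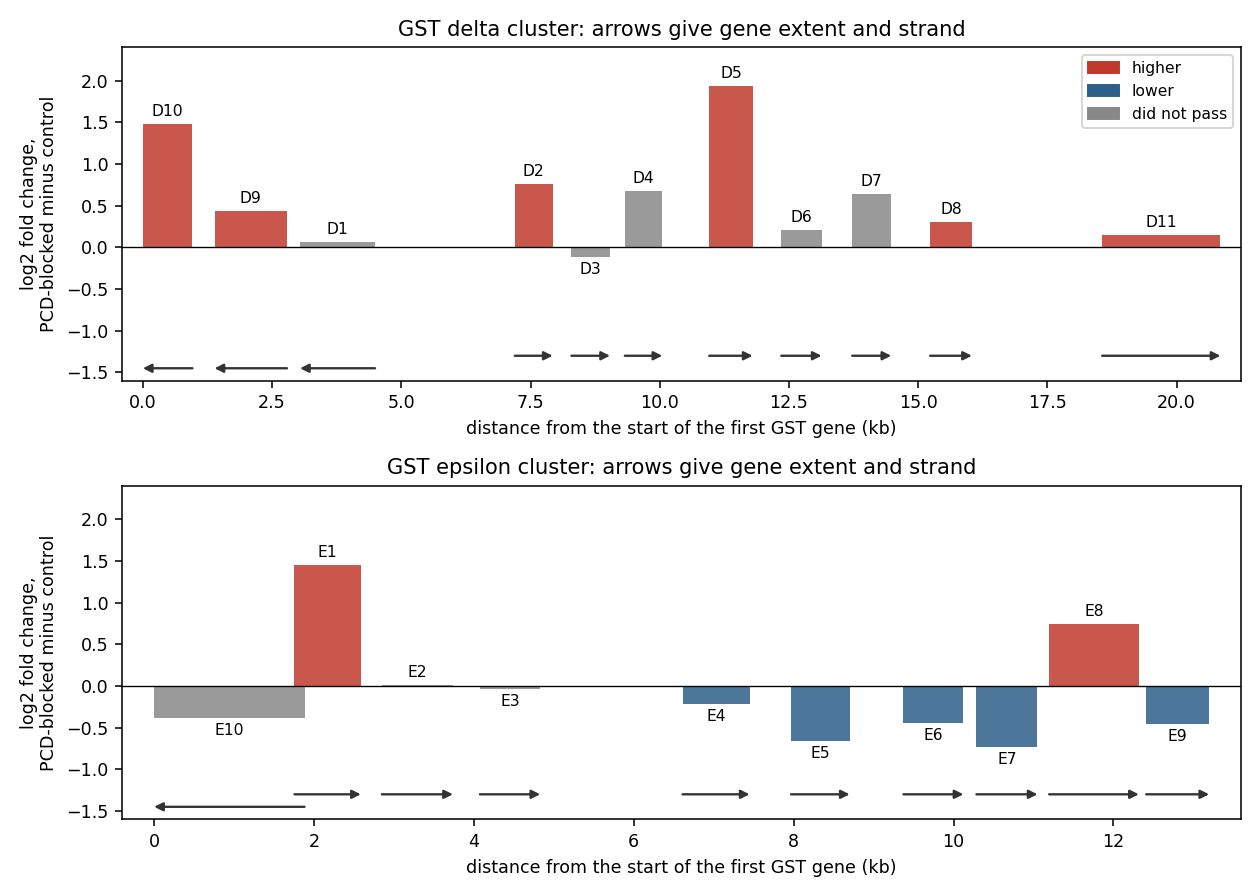
Log2 fold change of PCD-blocked over control by position in the delta cluster on chromosome 3R (top) and the epsilon cluster on 2R (bottom), with distance in kb from the start of the first GST gene. Bars span each gene, arrows show its extent and strand, and colours are red for higher, blue for lower and grey for genes that did not pass. In the epsilon cluster GstE1 (1.45) and GstE8 (0.74) stand above 0, and GstE8 lies between GstE7 (-0.73) and GstE9 (-0.46).

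Epsilon genes make up the larger share of GST transcripts in the antenna. All 14 are on chromosome 2R, and 10 of them form a cluster of 13.2 kb (18396638 to 18409835). GstE4 (18403248 to 18404086) was the most abundant GST gene per kb of exon, with 2917 CPM per kb in PCD-blocked and 3391 CPM per kb in control antennae. GstD1 followed with 1417 CPM per kb in PCD-blocked and 1356 CPM per kb in control antennae, and GstE6 with 484 and 656 CPM per kb in the same groups. GstE4 had 2484, 2438 and 2421 CPM in PCD-blocked libraries and 2978, 2777 and 2780 CPM in controls. This fall was small, 0.861 of the control level, but larger than the spread between replicates (log2 fold change -0.22 ± 0.03 SE, adjusted p = 0.00140).

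GstE1 (FBgn0034335, 18398393 to 18399223) rose more than any other epsilon gene. It had 286, 293 and 222 CPM in PCD-blocked antennae, against 99.6, 96.6 and 94.5 CPM in controls, a 2.74-fold rise (1.45 ± 0.06 SE, adjusted p = 2.06e-06). The control values lay close together, whereas PCD-blocked 3 was below the other PCD-blocked libraries. By level per kb it was the 13th GST gene in controls and the 5th in PCD-blocked antennae. GstE8 (18407834 to 18408955) was the other epsilon gene that rose, with 30.0, 27.9 and 27.0 CPM in PCD-blocked antennae against 18.0, 16.6 and 16.4 CPM in controls (0.74 ± 0.06 SE, adjusted p = 4.47e-05). Its 3 pair ratios were nearly equal, at 0.72 to 0.75.

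Fallen epsilon genes surround GstE8. GstE7, directly before it, had 50.1, 48.4 and 43.6 CPM in PCD-blocked antennae and 89.4, 79.0 and 68.3 CPM in controls (-0.73 ± 0.05 SE, adjusted p = 1.17e-05). GstE9, directly after it, had 161, 164 and 150 CPM in PCD-blocked antennae against 215, 220 and 219 CPM in controls (-0.46 ± 0.04 SE, adjusted p = 4.88e-05). The level of GstE8 per kb was therefore 0.393 to 0.422 of that of GstE7 in PCD-blocked libraries, against 0.137 to 0.164 in controls.

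In the same stretch GstE5 fell to 79.3 ± 3.12 CPM, against 125 ± 3.55 CPM in controls (-0.66 ± 0.03 SE, adjusted p = 3.61e-06). GstE6 fell to 364 ± 16.9 CPM, against 492 ± 26.3 CPM in controls (-0.44 ± 0.03 SE, adjusted p = 2.29e-05). Outside the cluster GstE12 (24766718 to 24768172) fell to 405 ± 7.95 CPM, against 503 ± 23.6 CPM in controls (-0.31 ± 0.03 SE, adjusted p = 2.56e-04). None of these 3 genes had overlapping groups.

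Other epsilon genes did not pass. GstE3, abundant and the GST gene before GstE4, had 285 ± 10.3 CPM in PCD-blocked and 292 ± 3.29 CPM in control antennae, with a narrow interval around 0 (-0.11 to 0.04). GstE2, between GstE1 and GstE3, had 17.6 ± 1.68 CPM in PCD-blocked and 17.4 ± 1.62 CPM in control antennae (interval -0.16 to 0.19). Outside the cluster lie GstE11, with 26.9 ± 1.08 CPM in PCD-blocked and 27.7 ± 4.35 CPM in control antennae (interval -0.19 to 0.13), and GstE13, with 10.9 ± 1.09 CPM in PCD-blocked and 10.6 ± 0.721 CPM in control antennae (-0.16 to 0.24). GstE10 was near the limit of detection at 0.602 ± 0.306 CPM in PCD-blocked and 0.769 ± 0.0653 CPM in control antennae, and it shares 20 bases of exon with GstE1 on the opposite strand. GstE14, also known as noppera-bo and required for ecdysteroid synthesis, had 0 counts in all 6 libraries, which allows up to 0.168 to 0.192 CPM per library by counting error alone. Whether its exons were counted under this identifier was not stated, so the 0 need not measure its expression.

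Near the epsilon cluster the gene imd, whose end overlaps GstE9, did not change detectably (-0.04, adjusted p = 0.718). Of the 5 nearest genes on each side 8 were tested. Among these 4 were higher and 1 lower, against 14.3% and 13.3% of all tested genes. The bomanin genes BomS3 (2.81), BomT2 (3.64) and BomS5 (2.45), which encode secreted immune peptides, lie before GstE10 and were higher on the log2 scale. On the other side Ttd14 was higher (0.11) and Dp1 lower (-0.13).

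**Figure D3:**
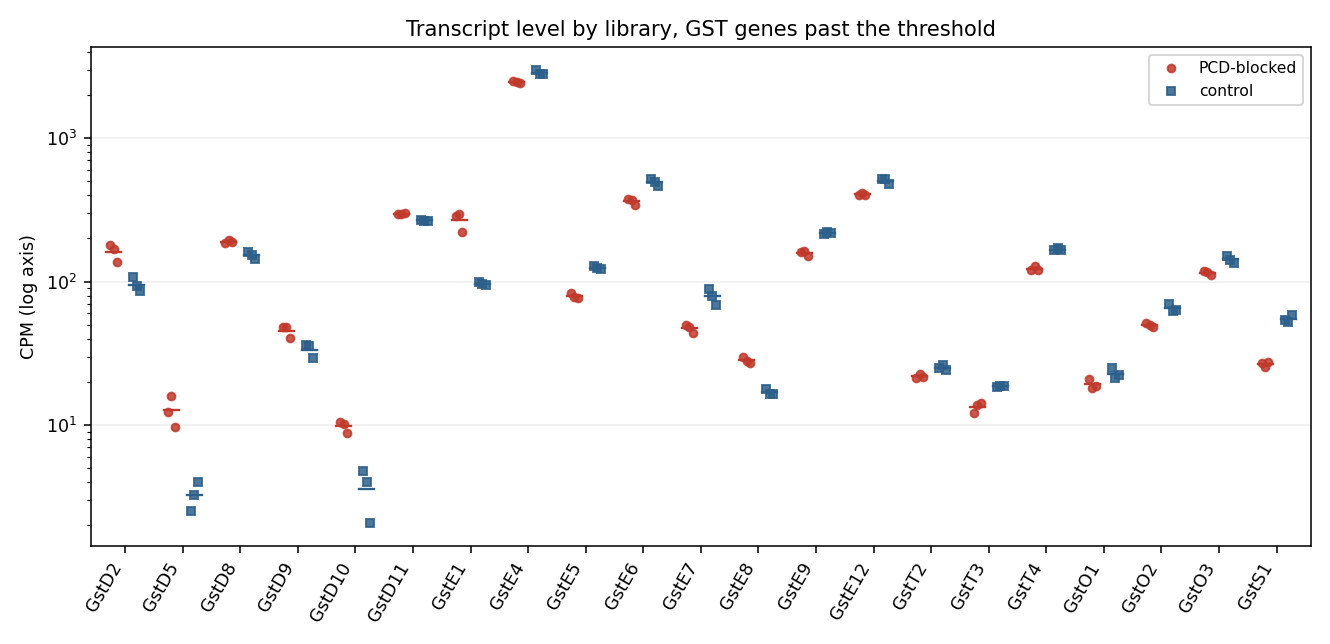
CPM in each library, on a log axis, of the 21 GST genes that passed, with PCD-blocked libraries (red circles) left of control libraries (blue squares) and bars at the group means. The 3 values of the groups do not overlap in any of these genes, and GstE4 lies far above the others.

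Smaller classes were lower or did not pass. GstS1 (FBgn0010226, chromosome 2R, 17093246 to 17099501), the single sigma gene, encodes an enzyme known to conjugate the lipid peroxidation product 4-hydroxynonenal and is abundant in flight muscle. It had 27.2, 25.2 and 27.4 CPM in PCD-blocked and 54.4, 52.7 and 58.3 CPM in control antennae, the strongest fall of the family (log2 fold change -1.05 ± 0.05 SE, adjusted p = 2.50e-06). Within pairs the log2 ratios lay close together, down to -1.09 in pair 3. In these libraries the muscle myosin gene Mhc varied within groups, at 7.80 ± 11.9 CPM in PCD-blocked and 7.03 ± 8.58 CPM in control antennae. It did not pass (-0.31), nor did the other tested muscle markers, TpnC4 (-0.76) and up (-1.03). The groups did not overlap for TpnC4, at 0.834 ± 0.161 CPM in PCD-blocked and 1.42 ± 0.369 CPM in control antennae, as in 38.7% of all tested genes. The part of muscle in the fall of GstS1 was not tested.

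Omega GSTs, which reduce dehydroascorbate and oxidised thiol substrates, are encoded by adjacent genes on chromosome 3L (8518885 to 8524866). GstO2 had 51.9, 49.5 and 48.3 CPM in PCD-blocked antennae and 70.2, 62.1 and 63.8 CPM in controls (-0.39 ± 0.04 SE, adjusted p = 2.33e-04). GstO3 had 119, 117 and 111 CPM in PCD-blocked antennae against 151, 142 and 134 CPM in controls (-0.30 ± 0.03 SE, adjusted p = 2.66e-04). GstO1 was lower by 0.24 on the log2 scale (SE 0.06), at 19.3 ± 1.44 CPM in PCD-blocked antennae against 22.8 ± 1.85 CPM in controls (adjusted p = 0.0194). This call was lost when any pair was left out (adjusted p = 0.0573 to 0.119), without the block (0.0635) and with DESeq2 (0.389), although the estimate stayed between -0.25 and -0.23. The fourth gene of this group, se, which makes a precursor of the red eye pigments, was below the expression filter at 0.470 ± 0.0999 CPM in PCD-blocked and 0.616 ± 0.120 CPM in control antennae. It lies between GstO3 and GstO2 and shares 61 bases of exon with GstO2 on the opposite strand.

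Theta genes fell with the exception of GstT1. The X-linked GstT4 (13404749 to 13409323) had 121, 127 and 120 CPM in PCD-blocked antennae and 167, 170 and 165 CPM in controls (-0.44 ± 0.03 SE, adjusted p = 2.37e-05). GstT3, also on the X chromosome, had 12.2, 13.8 and 14.4 CPM in PCD-blocked antennae against 18.5, 18.7 and 18.6 CPM in controls (-0.47 ± 0.08 SE, adjusted p = 0.00216). On chromosome 2R GstT2 was lower, at 21.9 ± 0.641 CPM in PCD-blocked antennae against 25.2 ± 0.856 CPM in controls (-0.20 ± 0.06 SE, adjusted p = 0.0318), a call lost without any of the pairs (adjusted p = 0.0769 to 0.188) and with DESeq2 (0.477), where the lowest alternative was 0.0281. Of its exon, 223 bases lie opposite CG12926, which did not pass (-0.26). GstT1, which lies just before it on the same strand, had 19.6 ± 1.46 CPM in PCD-blocked and 17.4 ± 1.14 CPM in control antennae and did not pass (0.16, 95% interval -0.03 to 0.35). Zeta GSTs act in tyrosine breakdown as maleylacetoacetate isomerases. GstZ1 had 6.92 ± 0.303 CPM in PCD-blocked and 7.90 ± 1.18 CPM in control antennae (-0.18, interval -0.44 to 0.07), and GstZ2 had 17.6 ± 0.465 CPM in PCD-blocked and 16.5 ± 1.00 CPM in control antennae (0.09, interval -0.06 to 0.25).

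**Figure D4:**
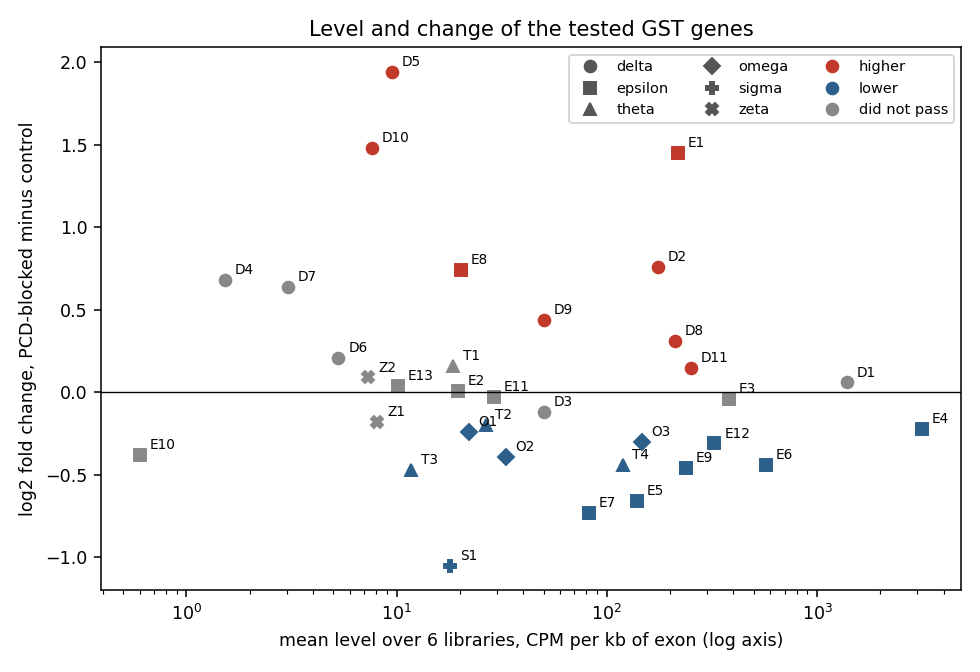
Mean level over the 6 libraries in CPM per kb of exon (log axis) against the log2 fold change of PCD-blocked over control for the 34 tested GST genes, with class by symbol shape. Of the 4 genes that changed more than 2-fold, GstD5 and GstD10 lie at the low end of the level axis, and GstE1 reached a rise of 1.45 at a far higher level.

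Summed levels were compared by class. Delta transcripts summed to 1961, 2030 and 1875 CPM in PCD-blocked libraries and to 1745, 1771 and 1714 CPM in controls, without overlap. Without GstD1, the most abundant delta gene, the delta sum was 760 ± 31.4 CPM in PCD-blocked against 601 ± 21.3 CPM in control libraries. Epsilon transcripts summed to 4222, 4178 and 4014 CPM in PCD-blocked libraries and to 4916, 4675 and 4584 CPM in controls, again without overlap. All 35 genes together gave 6507 ± 185 CPM in PCD-blocked and 7007 ± 198 CPM in control antennae. As a share of summed GST counts, the delta class took 29.7% to 30.6% in PCD-blocked libraries and 24.2% to 25.4% in controls. The epsilon class took 63.1% to 63.9% in PCD-blocked libraries and 66.9% to 68.1% in controls.

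**Figure D5:**
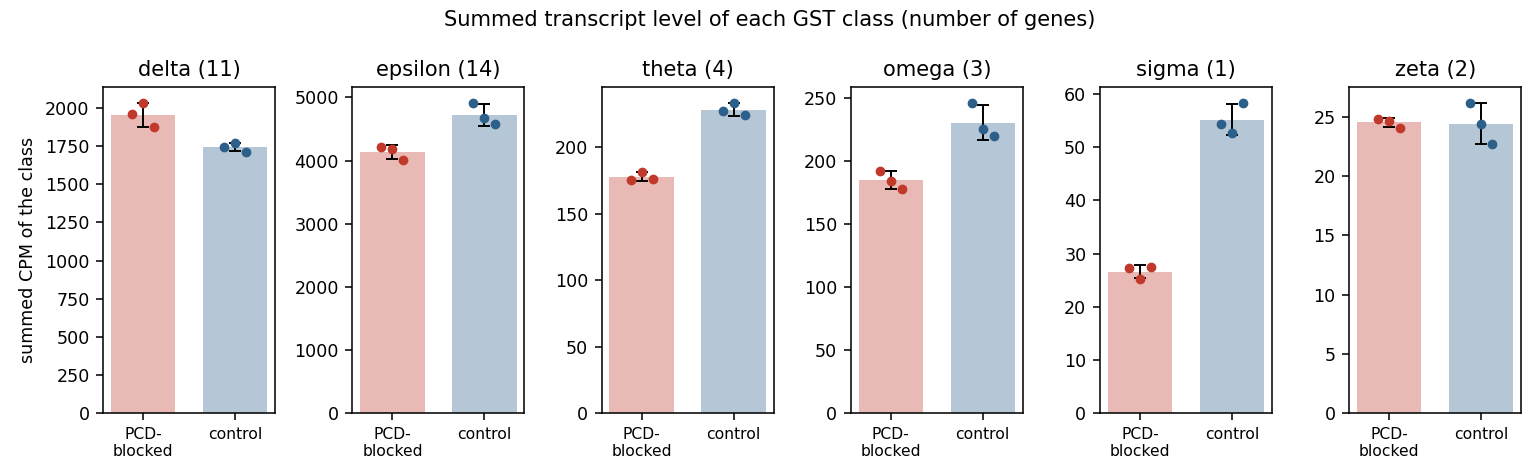
Summed CPM of each GST class in PCD-blocked (left bar) and control (right bar) antennae, each panel with its own axis from 0. Bars are means, error bars the SD and points the 3 libraries. The delta sum is higher in PCD-blocked libraries, the epsilon, theta, omega and sigma sums are lower and the zeta sums overlap.

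Beyond the named family, other genes of glutathione chemistry and antioxidant defence were counted in 5 lists. Mgstl, a membrane-bound microsomal GST of separate origin, fell to 310 ± 12.8 CPM, against 353 ± 14.1 CPM in controls (-0.19, adjusted p = 0.00247). It was the only one of 3 tested GST-fold or GST-like relatives that passed, against 27.7% of all tested genes. Of 6 tested genes of glutathione synthesis and turnover 0 were higher and 4 lower by edgeR, against 14.3% and 13.3% of all tested genes. The 4 lower genes were Gclc, the catalytic subunit of the rate-limiting enzyme (-0.13), the gamma-glutamyl transferase gene Ggt-1 (-0.12), CG4829 (-0.14) and CG10365 (-0.33). None of the list was higher by an unadjusted p under 0.05, by DESeq2 or by limma-voom. The count of lower genes was 1 with DESeq2 or without pair 2, and 2 without the block or without pair 1. DESeq2 called 7.21% of all tested genes lower.

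In the thioredoxin, peroxidase and superoxide defence list 2 of 14 tested genes were higher and 6 lower, against 14.3% and 13.3% of all tested genes. Higher genes numbered 1 with DESeq2 and without pair 2 or pair 3. The catalase gene Cat fell to 847 ± 49.4 CPM, against 1142 ± 8.99 CPM in controls (-0.43, adjusted p = 6.83e-05). The superoxide dismutase genes Sod1 (-0.32), Sod3 (-0.26) and Sod2 (-0.17), the peroxiredoxin gene Prx2 (-0.24) and the thioredoxin reductase gene Trxr1 (-0.19) fell as well. Against them Gtpx, a peroxidase gene also called PHGPx, rose to 731 ± 18.7 CPM, against 569 ± 4.09 CPM in controls (0.36, adjusted p = 9.82e-05). The glutaredoxin gene Grx1 was higher by 0.21. The median log2 fold change of this list was -0.15, against 0.00 over all tested genes.

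Transcription of many GST genes is known to depend on CncC, a product of the gene cnc that pairs with Maf-S and is held back by Keap1. Both cnc (-0.20, adjusted p = 0.00172) and maf-S (-0.16, adjusted p = 0.0466) were lower in PCD-blocked antennae, and Keap1 did not pass (-0.10). Of the 6 regulators 0 were higher and 2 lower by edgeR, against 14.3% and 13.3% of all tested genes. None of the regulators was higher by an unadjusted p, by DESeq2 or by limma-voom either. The count of lower regulators was 1 in place of 2 with DESeq2, without the block and when any pair was left out. Among 10 tested ABCC transporters, a family that includes exporters of glutathione conjugates, 1 was higher and 4 lower, against 14.3% and 13.3% of all tested genes. CG9270 fell to 3.72 ± 0.494 CPM, against 9.91 ± 0.610 CPM in controls (-1.41), and Mrp5 to 22.4 ± 2.41 CPM, against 39.9 ± 3.44 CPM in controls (-0.84). CG31793 (-0.18) and Mrp4 (-0.15) were lower and rdog was higher (0.25), while MRP, the most abundant by counts, did not pass (0.01). With DESeq2, without the block and without pair 2, 0 of these transporters were higher and 2 lower.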

How the data were processed

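Antennal RNA of 6 pooled collections was sequenced by the authors from poly(A)-selected, directional libraries, per the labels' protocols. The deposited values are whole-number read counts per gene, 1 file per library. Tools listed in the submitters' processing notes are HTSeq 0.9.1, STAR 2.5.3a and cutadapt 1.8, with build BDGP6. Their settings, the strand use and the annotation release were not stated there. Reads shared by near-identical GST copies may have been split or lost, and 7 GST genes have exons opposite another gene, by 223 bases in GstT2 and by 6 to 61 in the others. Symbols, positions and exon lengths come from the Ensembl annotation of BDGP6, in which all 35 GST identifiers matched.

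The 5 rows that name no gene held 11.9% to 13.5% of counts and were left out. Genes were tested with edgeR 4.0.16 in R 4.3.3 (quasi-likelihood test, TMM scaling, default expression filter by group, Benjamini-Hochberg adjustment, threshold 0.05) with the sample pair as a block, because the design is described as paired by the submitters. Deviations from the group mean correlated between paired libraries at 0.07, 0.24 and -0.19. Between PCD-blocked and control libraries of different pairs they correlated at -0.37 to 0.29. Standard errors and 95% intervals follow from the test statistic and its degrees of freedom. Replicates differed by more than sampling noise (chi-square per degree of freedom 4.12 to 10.6). Nothing in the labels says whether pairs share a day. The p-values set the group difference against the variation left between these collections after pair differences are removed. The limit given for GstE14 covers counting error only. Alternatives were median-of-ratios scaling, DESeq2 1.42.0, limma-voom (limma 3.58.1), 2 other filters, no block, scaling without genes above 1% of counts, and each pair left out. The test was checked on simulated counts that held no pair effects and fewer changed genes than were called here, so the check does not cover these data in full. All 35 GST genes were named. From each list the members past the threshold were named, up to 6 by smallest p, and near the delta and epsilon clusters the 5 nearest genes on each side. Keap1, MRP, lists' other members and the marker genes named were outside this rule. Members, lists and rule were chosen with earlier results of these data known.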

Additional observations from a re-analysis of the deposited data

How the results depend on the processing

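Of the 21 GST genes that passed, 18 kept direction and call under all 10 alternatives, and the exceptions were GstD11, GstO1 and GstT2. GST genes called higher numbered 7 to 9 and those called lower 11 to 13 over the alternatives, with 7 to 9 and 11 when 1 pair was left out. Without the replicate block 8 were higher and 12 lower, and GstO1 (adjusted p = 0.0635 with edgeR) was the 1 lost call. Over all genes, DESeq2 called 653 higher and 662 lower against 1314 and 1225 with edgeR, and leaving out 1 pair gave 753 to 1065 higher and 728 to 1006 lower, fewest without pair 2. The cause was not tested. Without pair 1, which holds the control library with the highest fat body marker levels, 8 GST genes were higher and 11 lower, and the sign of GstE2 (-0.05) and GstE11 (0.05), neither of which passed, was reversed, while without pair 3 they stood at 0.09 and -0.11. The median of all genes stayed at 0.00 under every alternative. The list counts were recomputed under the same alternatives after the data were seen. Glutathione synthesis had 1 lower gene with DESeq2 and without pair 2, and 2 without the block and without pair 1. The regulators had 1 lower gene with DESeq2, without the block and when any 1 pair was left out. The defence list had 1 higher gene with DESeq2 and without pair 2 or 3, and 3 with limma-voom and without the block. The GST-fold relatives had 2 lower genes without pair 3. ABCC transporters had 0 higher and 2 lower with DESeq2, without the block and without pair 2, and 0 higher without pair 1. GstD4, GstD6, GstD7 and GstE10 had 31 to 225 counts over the 3 libraries of a group and did not pass, with intervals of the log2 fold change from -0.15 to 0.58 (GstD6) up to -0.42 to 1.78 (GstD4).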
